A study of Mus musculus with 20 samples.

Results

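Genes of the hypoxia-inducible factor (HIF) pathway, 10 in all, were followed in mouse embryonic fibroblasts (MEFs) that lack the transcription factor E2F4 and in wild type MEFs. They were the glucose transporter Slc2a1, the angiogenic ligands Vegfa and Adm, the mitochondrial and growth-control genes Pdk1, Bnip3, Ddit4 and Ndrg1, the oxygen sensors Egln1 and Egln3, and Hif1a, which encodes the oxygen-regulated HIF subunit. The members were picked by name, with earlier results of these data known. All their probe sets with 1 gene symbol were taken, current or former symbols included. This gave 23 of the 22626 non-control probe sets on the array, for 10 of its 12393 named genes. A filter on low signal kept 21 of the 23, and left out 1 probe set of Egln3 and 1 of Hif1a.

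RNA came from 20 cultures, each hybridised to 1 Affymetrix array of 1 colour. The E2F4 null group held 10 cultures from 5 null embryos, with 2 cultures per embryo, and the wild type group held 10 cultures from 3 wild type embryos, with 3 or 4 cultures per embryo. All were primary MEFs from embryos at 13.5 days post coitum. Sex, strain, litter, passage and oxygen level are absent from the labels, which also do not say which part of E2f4 was removed. The embryo was the replicate, so p-values between genotypes set the difference of the means against the spread between these embryos. In bulk RNA, fewer cells of a type and less RNA per cell cannot be told apart.

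HIF is a dimer of an oxygen-regulated alpha subunit and ARNT. In oxygenated cells the EGLN prolyl hydroxylases mark the alpha subunit, the VHL ubiquitin ligase binds the mark and the protein is degraded, so that most of the control of HIF-1alpha is on the protein and not on its mRNA. When oxygen falls, the dimer binds short hypoxia response elements and raises genes for glucose uptake, glycolysis, vessel growth and mitochondrial turnover, and in fibroblasts also for collagen processing. Egln3 and, less strongly, Egln1 are themselves HIF targets in many cells, which makes a feedback loop.

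ACGTG, or CACGT when read on the other strand, was used as the core of a hypoxia response element. Other forms of the core were not searched for. The RefSeq promoter table (GRCm38.p6) held 11 promoters for 9 of the 10 genes. The core was found in the 250 bases before the start in 7 of these 11 promoters, from 7 genes, against 16.6% of all 32851 promoters and 22.4% of the 8203 promoters of genes tested here. Neither Pdk1 promoter, the Adm promoter nor the first of the 2 Vegfa promoters held ACGTG or CACGT. The Vegfa match was in the second promoter (chr17:46025114-46025413), which lies inside the gene span of 46016993 to 46032377. The Hif1a promoter (chr12:73907617-73907916) also lies inside its gene span, from 73901324 to 73947554. Both are counted among the 7. A match describes the letters of this window and not a bound site. Windows around the match are shown for 4 genes whose levels are given in detail below, 5′ to 3′ on the strand of the gene, with the core in capitals. They are Slc2a1 (chr4:119108669-119108744, plus strand, 36 bases before the start), Bnip3 (chr7:138909570-138909654, minus strand, 108 bases before the start, where matches on both strands overlap), Ddit4 (chr10:59951913-59951997, minus strand, 187 bases before the start) and Egln3 (chr12:54204059-54204124, minus strand, 229 bases before the start).
Slc2a1: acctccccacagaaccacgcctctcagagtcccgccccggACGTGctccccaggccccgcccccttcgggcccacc
Bnip3: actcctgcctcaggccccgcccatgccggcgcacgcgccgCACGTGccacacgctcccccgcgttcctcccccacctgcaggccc
Ddit4: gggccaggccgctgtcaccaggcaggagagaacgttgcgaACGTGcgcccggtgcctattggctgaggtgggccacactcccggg
Egln3: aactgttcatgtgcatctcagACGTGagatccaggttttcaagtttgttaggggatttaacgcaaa

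Signals are given on the linear scale of the deposited values, and differences and their standard errors (SE) on the log2(signal + 16) scale, where the change of a low gene is understated. Median signals lay between 135 and 146 on the 20 arrays, and the trimmed mean signal was the same on every array to within 0.01. Probe set 1451480_at of E2f4, the targeted gene, had signals of 157, 167, 156, 155 and 196 in E2F4 null embryos 1 to 5, against 209, 212 and 221 in wild type embryos 1 to 3. All 5 null values were under the 3 wild type values, with a difference of -0.35 (SE 0.10, limma adjusted p = 0.367); where this probe set lies relative to the removed part is not given in the sources used here. All 10 fibroblast markers passed the filter, with a summed signal of 94221 to 106976 in null embryos and 103991 to 106765 in wild type embryos, while 0 of 5 erythroid, 1 of 8 endothelial and 2 of 7 epithelial markers did. Macrophage markers passed in 8 of 9 cases, with a summed signal of 1365 to 4602 in null embryos and 1708 to 2657 in wild type embryos.

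Between genotypes, no HIF gene passed the test, and neither did any other probe set. Most of the 10 genes nevertheless had a higher mean in null embryos. Among probe sets past the filter, the widest differences were those of Egln3, Pdk1, Adm and Bnip3, at 0.28 to 0.58. Embryos of the same genotype were compared by a different test, over cultures. Wild type embryos differed in 71.4% of the 21 probe sets that passed the filter, against 46.7% of all probe sets. Null embryos differed in 19.0% of the 21, close to the 18.3% of all. In wild type MEFs, Adm varied 3.04-fold and Egln3 2.85-fold between embryos.

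In numbers, 0 of the 21 probe sets were called between genotypes at a limma adjusted p under 0.05, with 0.0% of all 13576 probe sets called. At an unadjusted p under 0.05, 2 of 21 were higher in null embryos (4.32% of all) and 0 were lower (4.57% of all). The same 2, from Slc2a1 and Pdk1, were those in which every null embryo lay above every wild type embryo (2.92% of all), and 0 had every null embryo below (3.55% of all). A positive difference was found for 17 of 21, against 49.2% of all probe sets. Several of the 21 were of the same gene and all were read on the same embryos, so they are not independent. The probe sets of Egln3 and Hif1a left out by the filter had differences of -0.13 and -0.34 when no filter was used. The median difference was 0.14 over the 21, and -0.003 over all. With 1 embryo left out in turn the median over the 21 ran from 0.08 without wild type embryo 3 to 0.25 without wild type embryo 2, and the number above 0 from 14 without wild type embryo 3 to 17.

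**Figure D1:**
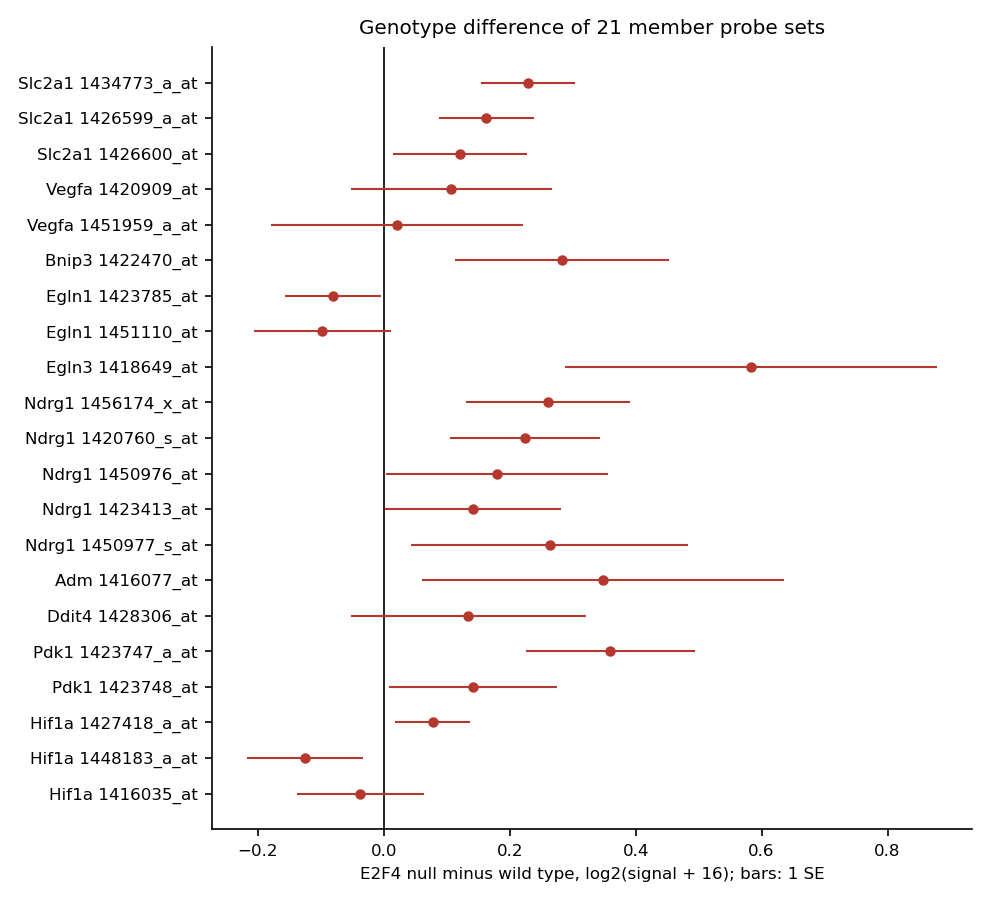
Difference in mean log2(signal + 16) between 5 E2F4 null and 3 wild type embryos for each of 21 probe sets (points), with bars of 1 SE. Points right of the line at 0 are higher in null embryos: 17 lie to the right and 4 to the left, and Egln3 1418649_at lies farthest out, at 0.58.

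Hif1a mRNA varied little between embryos in its brightest probe set. Probe set 1427418_a_at had signals of 3679, 3441, 3375, 3461 and 3513 in null embryos 1 to 5, against 3528, 3092 and 3322 in wild type embryos 1 to 3. The groups overlapped, with null embryo 1 highest and wild type embryo 2 lowest, and the difference was 0.08 (SE 0.06, limma adjusted p = 0.742). Its highest embryo exceeded its lowest by only 1.09 times among null embryos and 1.14 times among wild type embryos.

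Other Hif1a probe sets had slightly lower means in null MEFs. In 1448183_a_at the mean was 436 ± 46.6 in null and 474 ± 9.18 in wild type embryos (SD, n = 5 and 3), a difference of -0.13 (limma adjusted p = 0.729). In 1416035_at it was 399 ± 27.6 in null and 411 ± 56.7 in wild type embryos, a difference of -0.04 (limma adjusted p = 0.937) that became 0.04 without wild type embryo 1. The probe sets of Hif1a thus disagreed in sign, and none was called between genotypes. Wild type embryos differed in 1427418_a_at (limma F adjusted p = 0.0444) and in 1416035_at (0.0192). The first of these calls was lost under 6 of 12 alternatives, among them without wild type embryo 1 (0.170) or 2 (0.380), and the second without wild type embryo 2 (0.603). The last, 1431981_at, was below the filter at 15.9 to 23.7 in null embryos, against 25.3 to 32.8 in wild type embryos, and the groups did not overlap. With no filter its difference was -0.34 (limma adjusted p = 0.648).

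The prolyl hydroxylases, which read oxygen, differed from each other in how far they varied. Egln1, the main hydroxylase of HIF-1alpha, had signals of 572, 619, 579.8, 638 and 553 in null embryos 1 to 5 for 1423785_at, against 632, 669 and 581 in wild type embryos 1 to 3. All embryos lay within a narrow band and the groups overlapped, with a difference of -0.08 (SE 0.08, limma adjusted p = 0.793). The other Egln1 probe set, 1451110_at, averaged 283 ± 33.8 in null and 308 ± 29.3 in wild type embryos, a difference of -0.10 (limma adjusted p = 0.828). In Egln1 the spread between embryos did not pass the limma F test in either genotype, for either probe set.

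Egln3, the hydroxylase most strongly induced by HIF in many cells, varied far more. In 1418649_at it had signals of 229, 221, 183, 124 and 144 in null embryos 1 to 5, against 98.4, 198 and 69.6 in wild type embryos 1 to 3. Null embryos 1 and 2 were the highest of all 8, and wild type embryo 2 stood with them while wild type embryos 1 and 3 lay below every null embryo. The mean was 180.2 ± 46.1 in null and 122 ± 67.4 in wild type embryos (SD, n = 5 and 3), and the difference of 0.58 (SE 0.30) did not pass (limma adjusted p = 0.608). It was 0.29 without wild type embryo 3 and 0.96 without wild type embryo 2, and neither passed (the lowest limma adjusted p with 1 embryo left out was 0.217).

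Embryos of 1 genotype differed from each other in Egln3, with a limma F adjusted p of 0.0147 among null and 1.05e-05 among wild type embryos. The cultures of wild type embryo 2 ranged from 182 to 215, above those of wild type embryo 1 (93.5 to 104) and wild type embryo 3 (53.8 to 79.7). Each of these calls rested on 1 embryo, since leaving out null embryo 4 gave an adjusted p of 0.0805, and leaving out wild type embryo 2 gave 0.0844. A second probe set, 1418648_at, lay below the filter at 18.1 to 72.3 in null and 34.3 to 63.1 in wild type embryos. With no filter its difference had the opposite sign, at -0.13 (limma adjusted p = 0.962).

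Among the 10 genes, Slc2a1 and Pdk1, both of glucose use, came closest to a separation of the genotypes. Slc2a1, the basal glucose transporter GLUT1, had signals of 1957, 1976, 1810.05, 1638 and 1835 in null embryos 1 to 5 for 1434773_a_at, against 1601, 1624 and 1489 in wild type embryos 1 to 3. Every null embryo lay above every wild type embryo, though null embryo 4 exceeded wild type embryo 2 by little. The mean was 1843 ± 136 in null and 1571 ± 72.2 in wild type embryos (SD, n = 5 and 3), a difference of 0.23 (SE 0.07) with a limma adjusted p of 0.423.

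In the other Slc2a1 probe sets the groups overlapped. In 1426599_a_at, 4 of 5 null embryos lay above the highest wild type embryo and the difference was 0.16 (limma adjusted p = 0.583), or 0.10 without wild type embryo 3. In 1426600_at it was 2 of 5, with a difference of 0.12 (limma adjusted p = 0.773) that was only 0.01 without wild type embryo 3. That embryo was the lowest of all 8 in each Slc2a1 probe set. In 1426600_at wild type embryos differed from each other (limma F adjusted p = 0.000299), which was lost without wild type embryo 3 (0.158). The same call in 1426599_a_at (limma F adjusted p = 0.0165) was lost without wild type embryo 2 (0.139) or 3 (0.402), and with median centring (0.0503).

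Pdk1 encodes a kinase that switches off pyruvate dehydrogenase. Its probe set 1423747_a_at had signals of 193, 273, 241, 178 and 211 in null embryos 1 to 5, against 166, 164 and 168 in wild type embryos 1 to 3. The wild type embryos were nearly identical and the null embryos all lay above them, null embryo 2 highest. The mean was 219 ± 38.0 in null and 166 ± 1.82 in wild type embryos, a difference of 0.36 (SE 0.13, limma adjusted p = 0.483).

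Beside these nearly equal wild type means stood a wide range of cultures, from 123 to 202 in wild type embryos 1 and 2. In the second Pdk1 probe set, 1423748_at, signals were 139, 153, 193, 123 and 159 in null embryos, against 142, 129.8 and 137 in wild type embryos. The groups overlapped there, with null embryo 4 the lowest of all 8, and the difference was 0.14 (SE 0.13, limma adjusted p = 0.792). No Pdk1 probe set was called between embryos of 1 genotype.

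**Figure D2:**
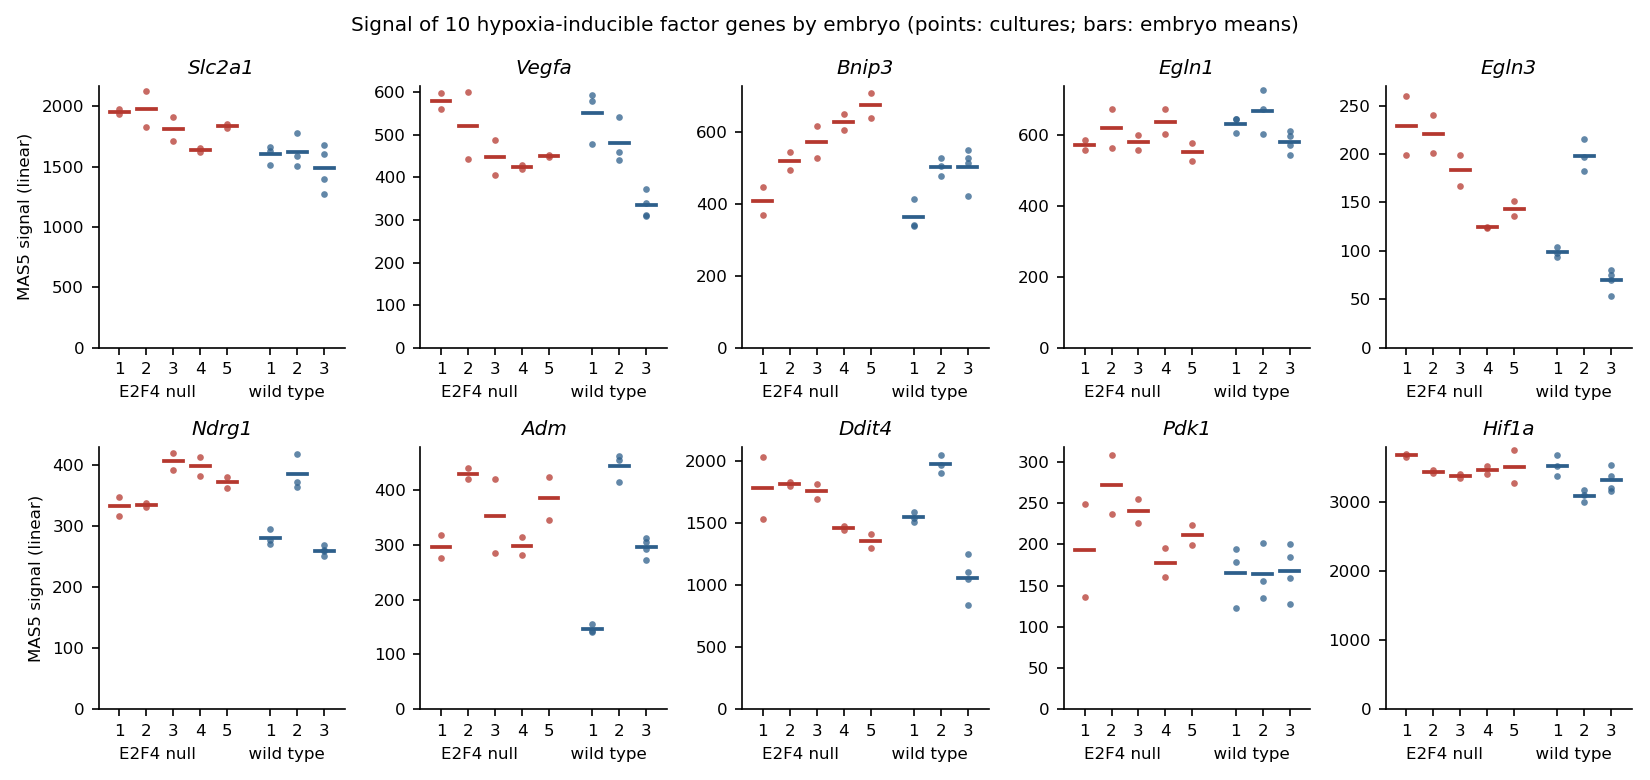
Deposited MAS5 signal (linear axis from 0) for the brightest probe set of each of the 10 genes, by embryo, with E2F4 null embryos 1 to 5 in red to the left of wild type embryos 1 to 3 in blue; points are cultures and bars are embryo means. Slc2a1 and Pdk1 have all null bars above the wild type bars, and the wild type bars of Adm, Egln3 and Ddit4 are spread widely.

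The secreted ligands did not separate by genotype. Adm encodes adrenomedullin, a vasodilator peptide, and its probe set 1416077_at had signals of 297, 430.0, 352, 298 and 385 in null embryos 1 to 5, against 146, 444 and 296 in wild type embryos 1 to 3. The wild type embryos held both the lowest and the highest of the 8 values, and the null embryos lay between them. The mean was 352 ± 57.4 in null and 295 ± 149 in wild type embryos (SD, n = 5 and 3), a difference of 0.35 (SE 0.29, limma adjusted p = 0.756). The difference was -0.06 without wild type embryo 1 and 0.69 without wild type embryo 2.

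Adm was the gene whose wild type embryos differed most, with a limma F adjusted p of 9.45e-08. The cultures of the 3 wild type embryos did not overlap, at 141 to 156 in embryo 1, 415 to 461 in embryo 2 and 272 to 312 in embryo 3. That call held under all 12 alternatives tried, with adjusted p from 3.68e-08 to 0.000353. Null embryos varied 1.45-fold in Adm and did not pass (limma F adjusted p = 0.136), except without null embryo 3 (0.0348).

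Vegfa, the main angiogenic growth factor, had signals of 579, 522, 448, 425 and 449.9 in null embryos 1 to 5 for 1420909_at, against 551, 481 and 334 in wild type embryos 1 to 3. Wild type embryo 3 was the lowest, and the groups overlapped. The second probe set, 1451959_a_at, gave 369, 382, 271, 242 and 243 in null embryos, against 347, 327 and 216 in wild type embryos, again with wild type embryo 3 lowest and null embryos 1 and 2 highest.

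The Vegfa differences were 0.11 (SE 0.16, limma adjusted p = 0.879) for the first probe set and 0.02 (SE 0.20, limma adjusted p = 0.983) for the second. They turned to -0.09 and -0.18 without wild type embryo 3, and the second also to -0.05 without null embryo 1 and -0.07 without null embryo 2. Wild type embryos differed in both probe sets (limma F adjusted p = 0.000229 and 0.000232), which was lost without wild type embryo 3 (0.204 and 0.587). Null embryos differed in the second (limma F adjusted p = 0.0256), a call that was lost without null embryo 2 (0.123), with no filter (0.0531) and without the variance trend (0.0545).

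The last group holds genes of mitochondrial turnover and growth restraint. Bnip3, a mitochondrial protein that starts the removal of mitochondria by autophagy, had signals of 408, 519.5, 572, 627 and 674 in null embryos 1 to 5 of 1422470_at, against 364, 503 and 503 in wild type embryos 1 to 3. In 4 of 5 null embryos it lay above the highest wild type embryo, while null embryo 1 was low and wild type embryo 1 lowest of all. The mean was 560.1 ± 103 in null and 456 ± 80.1 in wild type embryos (SD, n = 5 and 3), a difference of 0.28 (SE 0.17, limma adjusted p = 0.675). It was 0.13 without wild type embryo 1, and also 0.13 when embryos were blocked by number.

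Among null embryos Bnip3 was lowest in embryo 1, where Vegfa, Egln3 and Ddit4 were high. It differed between null embryos (limma F adjusted p = 0.00847) and between wild type embryos (0.00385). These calls rested on the lowest embryo of each genotype: the adjusted p was 0.117 when null embryo 1 was left out and 0.966 when wild type embryo 1 was.

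Ddit4 (REDD1), an inhibitor of mTORC1 induced by hypoxia and other stresses, had signals of 1784, 1817, 1758, 1460.5 and 1357 in null embryos 1 to 5 of 1428306_at, against 1547, 1976 and 1060.1 in wild type embryos 1 to 3. Wild type embryo 2 was highest and wild type embryo 3 lowest of all 8, so that the null embryos fell inside the wild type range. The difference was 0.13 (SE 0.19, limma adjusted p = 0.867), and was -0.11 without wild type embryo 3 and 0.34 without wild type embryo 2. Wild type embryos differed 1.86-fold (limma F adjusted p = 2.29e-05), which held under all 12 alternatives with adjusted p up to 0.00573. The call between null embryos was marginal (0.0493) and was lost under 9 of 14 alternatives, among them without null embryo 2 (0.116), 3 (0.0539), 4 (0.0837) or 5 (0.187).

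Ndrg1, a stress-responsive growth suppressor, had 5 probe sets. In 1456174_x_at the signals were 333, 335, 407, 399 and 372 in null embryos 1 to 5, against 281, 385 and 260.2 in wild type embryos 1 to 3. Wild type embryos 1 and 3 lay below every null embryo and wild type embryo 2 stood among the null embryos. The difference was 0.26 (SE 0.13, limma adjusted p = 0.603). It was 0.15 without wild type embryo 3 and 0.42 without wild type embryo 2 (limma adjusted p = 0.217).

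The other 4 Ndrg1 probe sets gave differences of 0.14 to 0.26, with limma adjusted p from 0.633 to 0.800, so that all 5 had the same sign and 0 were called. With 1 embryo left out these 4 differences ran from 0.04 to 0.54, the highest for each without wild type embryo 2 and the lowest without wild type embryo 1 or 3. The suffix _x marks probe sets with probes that can bind other transcripts, and _s those shared by several transcripts, so 3 of the 5 may not be specific to Ndrg1. Between wild type embryos all 5 were called (limma F adjusted p from 0.000298 to 0.0253), against 46.7% of all probe sets. Between null embryos 0 were, against 18.3% of all. Wild type embryo 2 was the highest wild type embryo each time, and without it 0 of 5 were called, with adjusted p from 0.474 to 0.632. The call of 1423413_at was also lost without wild type embryo 3 (0.0773), with no filter (0.0567) and with the culture number as a block (0.0842).

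Differences between embryos of 1 genotype, tested over cultures, were called where those between genotypes, tested over embryo means, were not. The wild type test held 3 embryos with 3 or 4 cultures each, and the null test 5 embryos with 2 each. Their counts of calls therefore do not compare the spread of the 2 genotypes. Between wild type embryos 15 of 21 probe sets were called, or 71.4%, against 46.7% of all probe sets. Several of these 15 were of the same gene and are not independent. Between null embryos 4 of 21 were called, or 19.0%, against 18.3% of all. Those 4 were of Vegfa, Bnip3, Egln3 and Ddit4, and each was also called between wild type embryos (15.2% of all were called in both). The wild type count depended on 1 embryo: it was 6 without wild type embryo 2, against 13 without embryo 1 and 10 without embryo 3. Over all probe sets the count of 6340 became 1660 without embryo 2, 5760 without embryo 1 and 4715 without embryo 3. Likewise the null count was 2 without null embryo 2 or null embryo 4, where the count of 2480 over all probe sets became 1426 and 2221.

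The median standard deviation (SD) between null embryos was 0.18 on the log2 scale over the 21 probe sets and 0.13 over all. Between wild type embryos it was 0.22 over the 21 and 0.15 over all. Cultures of 1 embryo varied by a median SD of 0.15 over the 21 and 0.13 over all. The SD between wild type embryos exceeded that between null embryos for 15 of 21 probe sets, against 57.9% of all. With 3 and 5 embryos these SDs are themselves imprecise, and their difference was not tested.

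**Figure D3:**
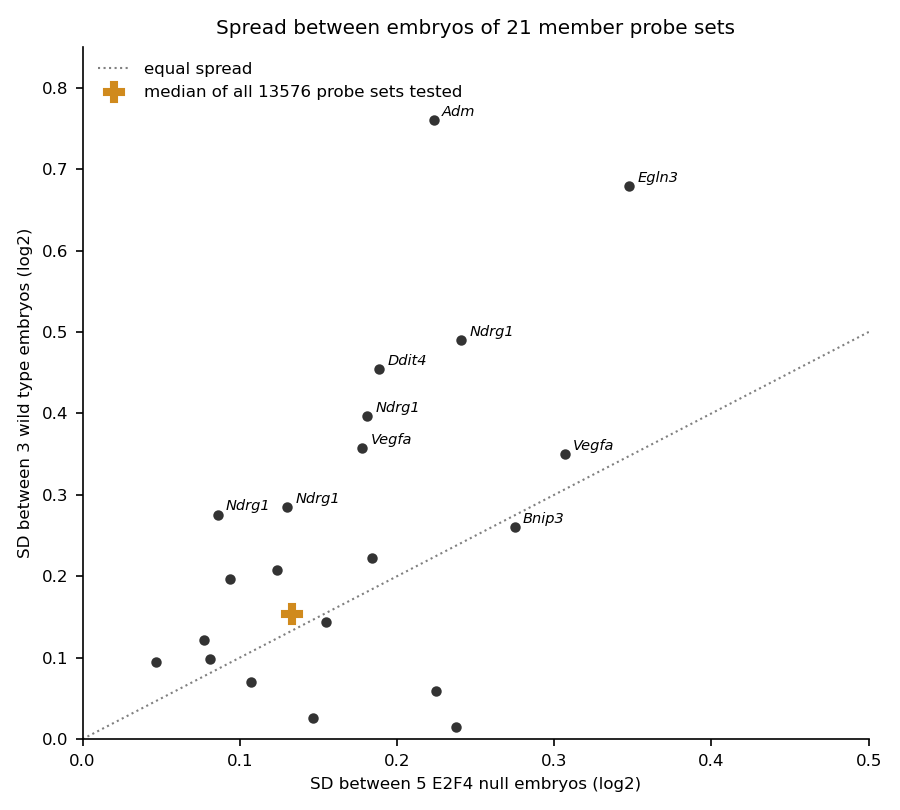
SD of log2(signal + 16) between 5 E2F4 null embryos (x) and between 3 wild type embryos (y) for each of 21 probe sets, with the dotted line at equal spread and a cross at the medians of all 13576 probe sets. Adm (0.22 and 0.76) and Egln3 (0.35 and 0.68) lie highest, and 15 of 21 points lie above the line.

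The embryos at the ends recurred. Among wild type embryos, embryo 2 was highest for 7 of the 10 genes, taking the brightest probe set of each, and embryo 3 was lowest for 6: Slc2a1, Vegfa, Egln1, Egln3, Ndrg1 and Ddit4. Embryo 1 was lowest for Bnip3 and Adm. Null embryos had a less even order, in which embryo 2 was highest for Slc2a1, Adm, Ddit4 and Pdk1 and embryo 4 lowest for Slc2a1, Vegfa, Egln3 and Pdk1. How often each embryo was highest or lowest over all genes was not counted, so these orders are not shown to be particular to the HIF genes. Over all probe sets tested, same-numbered embryos of the 2 genotypes deviated together, at r = 0.13, 0.62 and 0.35 for numbers 1, 2 and 3. Whether they share more than the number is not given in the labels.

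Averaged over the 10 genes, the deviation from the midpoint of the genotype means was 0.10, 0.23, 0.15, 0.01 and 0.09 (log2) in null embryos 1 to 5, against -0.20, 0.13 and -0.27 in wild type embryos 1 to 3. Wild type embryo 2 thus lay among the null embryos, and the other two wild type embryos below them. The same embryos differed in other gene groups. Proliferation genes averaged -0.15, -0.12, 0.15, 0.23 and 0.21 in null embryos, against 0.01, -0.48 and 0.27 in wild type embryos, so that wild type embryo 2 was lowest there. Macrophage markers averaged -0.54, 0.08, 0.12, 0.84 and 0.19 in null embryos, against -0.36, 0.26 and -0.32 in wild type embryos, with wild type embryo 2 the highest of its genotype. The part of these groups in the levels of the HIF genes was not tested.

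**Figure D4:**
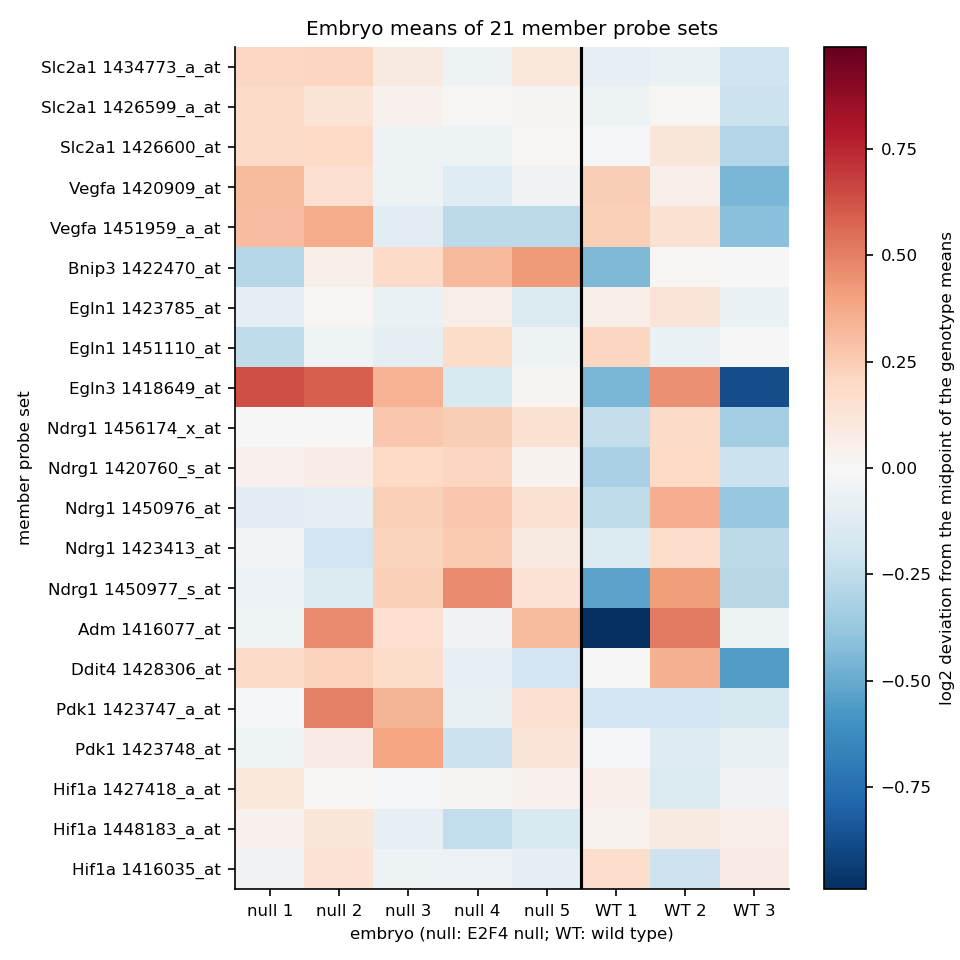
Deviation of each embryo mean from the midpoint of the genotype means (log2, red above and blue below) for 21 probe sets (rows) in E2F4 null embryos 1 to 5 and, right of the black line, wild type embryos 1 to 3. Wild type embryo 2 is red for Egln3, Ndrg1, Adm and Ddit4, while wild type embryo 3 is blue for Slc2a1, Vegfa, Egln3, Ndrg1 and Ddit4.

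Whether the 10 genes moved together from embryo to embryo was examined over the 8 embryo means, with 1 probe set a gene and exact permutation tests. Of the 45 pairs, 33 had a Pearson r above 0, with a median r of 0.31, and 0 had an adjusted p under 0.05. The closest pair was Egln3 with Ddit4, at r = 0.88 (exact two-sided permutation p = 0.00486, adjusted 0.219). Spearman's rho for it was 0.81 (exact permutation p = 0.0218, adjusted 0.327), and r was 0.83 without the 2 embryos farthest from the median of Egln3.

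Of the other pairs, 3 had an unadjusted p under 0.05. They were Slc2a1 with Egln3 (r = 0.83, exact permutation p adjusted 0.280; rho = 0.81, adjusted 0.327), Slc2a1 with Pdk1 (r = 0.76, adjusted 0.350; rho = 0.81, adjusted 0.327) and Vegfa with Ddit4 (r = 0.76, adjusted 0.350; rho = 0.62, adjusted 0.567). Without the 2 farthest embryos these fell to 0.63, 0.62 and 0.30, so the last rests on those embryos. For Slc2a1 with Pdk1, r was 0.51 over the 5 null embryos, while the 3 wild type means of Pdk1 were too alike to test the relation. The 8 points share 2 genotypes. With 1 embryo left out in turn, a pair passed the adjusted threshold by Pearson r in 2 of 8 cases: Vegfa with Egln3 without wild type embryo 1 (r = 0.95, exact permutation p adjusted 0.0179, against r = 0.66 over all 8 embryos) and Slc2a1 with Egln3 without wild type embryo 2 (r = 0.97, adjusted 0.0357). By Spearman's rho neither passed there (0.96, exact permutation p adjusted 0.125, and 0.93, adjusted 0.152).

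Of all other genes, 5 were most like the average of the 10 over the 8 embryos, by Pearson r. They were Slc37a3 (0.96), a sugar phosphate carrier by family, Abi1 (0.95), an actin regulator, Eln (0.95), which encodes elastin, Ankrd13c (0.94) and Tomm20 (0.94), a receptor of mitochondrial protein import. These were the top of 7685 genes compared on 8 points and are given as a description.

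Genes around the 10 gave the following picture, each list taken with 1 probe set a gene and none of its members called. The HIF subunits and their regulators (12 of 15 on the array, 10 past the filter) differed little in the mean, with 3 above 0 and 7 below and a median difference of -0.02. The smallest p values there were those of Siah2, a ubiquitin ligase of the prolyl hydroxylases, at 199.5 ± 17.0 in null and 179 ± 24.9 in wild type embryos (0.15, limma adjusted p = 0.724), and of Hif3a, at 0.18 (0.801). Epas1, which encodes HIF-2alpha and is named here after its values were seen, was below the filter at 11.5 ± 8.01 in null and 8.36 ± 2.93 in wild type embryos.

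Other HIF targets (28 past the filter, of 36 on the array) were divided, with 16 above 0 and 12 below and a median of 0.04. In 4 every null embryo lay above every wild type embryo, and in 1 below, against 222 and 284 of 7695 genes. The smallest p values lay on opposite sides. Angptl4, a secreted inhibitor of lipoprotein lipase, was at 126 ± 8.39 in null and 200.5 ± 40.2 in wild type embryos, a difference of -0.59 (SE 0.13, limma adjusted p = 0.293). Tfrc, the transferrin receptor, was at 2521 ± 71.9 in null and 1799.9 ± 398 in wild type embryos, a difference of 0.51 (SE 0.12, limma adjusted p = 0.293). For both, the groups did not overlap.

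Glycolytic enzymes had 12 of 14 differences above 0 with a median of 0.15, among them Tpi1 at 5935 ± 149 in null and 5210.3 ± 308 in wild type embryos (0.19, limma adjusted p = 0.369) and Pfkl at 0.32 (0.455). In 2 of the 14, Tpi1 among them, every null embryo lay above every wild type embryo, and in 0 below. Stress genes driven by ATF4, of which Ddit4 is a known target too, had 10 of 10 above 0 with a median of 0.30. Every null embryo lay above every wild type embryo in 4 of the 10, and below in 0. Psat1 and Phgdh, enzymes of serine synthesis, came closest in that list, at 0.32 (limma adjusted p = 0.224) and 0.24 (0.293). The 10 HIF genes had 9 above 0 and a median of 0.24 on the same footing, and all 7695 genes had 3759 above 0 and a median of -0.004. Every null embryo lay above every wild type embryo in 2 of the 10 HIF genes and in 222 of all 7695, and below in 0 and 284.

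Of the lists of proliferation and cell types, proliferation genes had 17 of 19 above 0 with a median of 0.13, led by Bub1b of the spindle checkpoint at 0.27 (limma adjusted p = 0.691) and the mitotic kinase Aurkb at 0.29 (0.741). Macrophage markers had 8 of 8 above 0 with a median of 0.33, led by Laptm5 at 0.35 (limma adjusted p = 0.757) and Cd14 at 0.32 (0.757). Fibroblast markers had 3 of 10 above 0 with a median of -0.08, with Pdgfrb at 0.20 (limma adjusted p = 0.720) and Fn1 at -0.18 (0.743). The endothelial gene Flt1 was at -0.28 (limma adjusted p = 0.812), and the epithelial keratins Krt19 and Krt18 were at 0.51 (0.582) and 0.38 (0.787). Between embryos, 15 of 19 proliferation genes were called among null embryos, against 1497 of all 7695 genes, and 19 of 19 among wild type embryos, against 3704 of 7695.

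**Figure D5:**
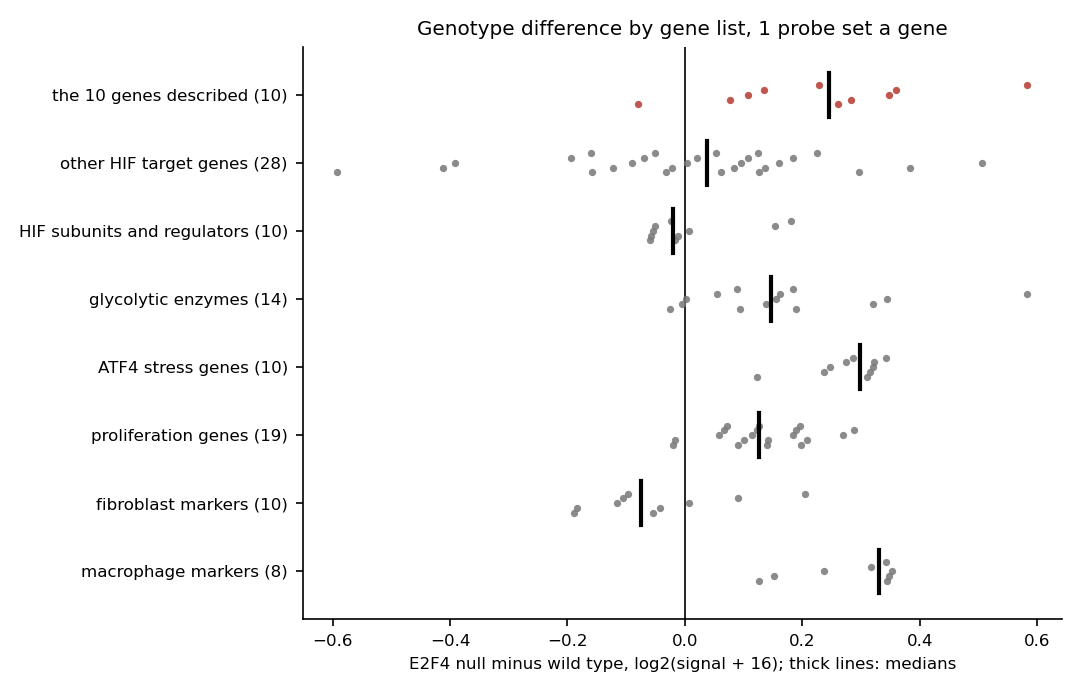
Difference between E2F4 null and wild type embryo means on log2(signal + 16) for each gene (points) of 8 lists, with the number of genes past the filter in brackets and medians as thick lines. The 10 HIF genes have a median of 0.24, other HIF targets 0.04, ATF4 stress genes 0.30 and macrophage markers 0.33.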

How the data were processed

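The authors deposited 1 table of linear signal intensities, with a value for each probe set and culture. The submitters' processing notes name MAS5, without a version or a scaling target. The common trimmed mean shows arrays scaled to each other, which hides a change shared by all genes. Of 22690 probe sets, 64 were controls. Of the others, 20380 had 1 gene symbol, 691 had several and 1555 had none in the platform annotation, and 20351 were matched to RefSeq genes (GRCm38.p6) by gene identifier. No pair of arrays was identical, and the number of arrays limits the precision.

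Values were taken as log2(signal + 16), and the cultures of an embryo were averaged. The first number in a sample title was taken for the embryo and the second for its culture. Probe sets with a mean signal at or above the 40th percentile (69.3) were kept, 13576 in all. The genotype test was limma's (version 3.58.1, R 4.3.3; lmFit and eBayes with a variance trend, two-sided), with wild type subtracted from E2F4 null, and embryos within a genotype were compared by limma's F test over cultures, each with Benjamini-Hochberg adjustment over all 13576 and a threshold of 0.05. The fits were tested on simulated data. Pairs of genes were compared with exact permutation tests, adjusted over 45 pairs.

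Embryo numbers occur in both genotypes. Deviations of same-numbered embryos from their group means correlated at 0.13, 0.62 and 0.35 for numbers 1, 2 and 3, so a fit with the number as a block was run too; the pairing comes from these values and not from the labels.

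The members and gene lists were chosen with earlier results of these data known. Named genes were all 10 members, 2 genes per list with the smallest p, the 5 genes most like the member average, and E2f4. The alternatives were pseudocounts of 4 and 64, no filter or the 60th percentile, quantile normalization, median centring, 1 probe set a gene, other variance models, blocks, cultures 1 and 2 only, and each embryo left out.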

Additional observations from a re-analysis of the deposited data

Results flagged for a closer look

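In Hif1a probe set 1416035_at, null embryo 2 stood apart from the other null embryos. Its signal was 447, against 376 to 394 in the other 4 null embryos, and its gap to the nearest took a share of 0.760 of the whole range, above Dixon's critical value of 0.71 for 5 samples. All 23 probe sets of the 10 genes were examined in this way among null embryos, and chance would give about 1 in 20 such groups. The other 3 Hif1a probe sets did not show it.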

How the results depend on the processing

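No HIF gene was called between genotypes under any of up to 21 alternatives. Over all probe sets the count of 0 became 1 with 1 probe set a gene, 119 with cultures and the embryo as a random block, 51 with the culture number as a replicate block beside it, and 0 to 6 with 1 embryo left out, the highest without wild type embryo 2. The 17 probe sets above 0 became 11 (of 15) with the 60th percentile filter, 9 (of 10) with 1 probe set a gene, 18 with the embryo number as a replicate block, and 14 to 17 with 1 embryo left out, when their median ran from 0.08 to 0.25. The embryo number as a replicate block, in which null embryos 4 and 5 have no partner, changed no call and moved Hif1a 1416035_at to 0.0017. Differences moved both ways in this fit. Egln3 1418649_at rose from 0.58 to 0.82 and Vegfa 1451959_a_at from 0.02 to 0.20, while Bnip3 fell from 0.28 to 0.13. The median over the 21 probe sets rose from 0.14 to 0.19. With 1 embryo left out, differences ranged from -0.060 to 0.69 for Adm, -0.11 to 0.34 for Ddit4, -0.15 to 0.042 for Hif1a 1416035_at, -0.092 to 0.25 for Vegfa 1420909_at and -0.18 to 0.14 for Vegfa 1451959_a_at. Between wild type embryos the counts became 3722 over all and 7 (of 10) for the HIF genes with 1 probe set a gene, where fewer probe sets were tested. With 1 embryo left out they became 1660 to 5760 over all and 6 to 13 for the HIF genes. Between null embryos the HIF count became 2 with no filter (2027 over all) and 2 without the variance trend (1914 over all). With 1 embryo left out it became 2 to 4, and the count over all 1426 to 2496. Correlated pairs past the adjusted threshold by Pearson r numbered 0 to 1 with 1 embryo left out. The causes were not tested. Without detection calls, signals near the filter cannot be told from background, and 3 wild type embryos limit every comparison.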
